A study of Quercus lobata with 12 samples.

Results

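Leaf gene expression was compared between 3 valley oak (Quercus lobata) seedlings treated with 5-Azacytidine and 3 control seedlings whose RNA was extracted on 30 October, which are 6 of the 12 seedlings in the series. They were chosen by the extraction date in the sample labels, and by no measured value, although earlier results of these data were known. The treated seedlings were HV-11-40, LAY-15-09 and YORK-09-37, and the controls were HV-11-34, LAY-15-03 and YORK-09-10. HV-11, LAY-15 and YORK-09 are families, each the offspring of 1 maternal tree. Each family thus gave 1 treated and 1 control seedling, and the 6 were compared as 3 pairs. The other 6 seedlings form the same 3 treated and control pairs of other individuals, with RNA extracted on 19 October (HV-11 and LAY-15) or 16 October (YORK-09).

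All seedlings were 5 months old and had been pruned before the experiment, so that new leaves emerged under the spray. Treated seedlings were sprayed for 27 days with 50 µM 5-Azacytidine in the surfactant TWEEN 20, and control seedlings with TWEEN 20 alone. Leaf tissue of every seedling was frozen at the end of the experiment, so the extraction day is a step in the laboratory and not a time of treatment. The acorns were open-pollinated, so the members of a pair are mostly half-siblings and differ genetically. Treated and control plants were kept apart in the growth chamber, and the families were picked for a large growth difference. Position in the chamber and treatment cannot be told apart, and the bisulfite sequencing of the study was done on other seedlings than these 6.

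5-Azacytidine is an analog of cytosine that is built into new DNA and traps the enzymes that copy methyl marks, so that methylation is lost as cells divide. Cytosine methylation in plants occurs in the CG, CHG and CHH sequence contexts and is best known for keeping transposable elements silent. Methylation in a promoter often goes with low transcription, while CG methylation within gene bodies is often found in steadily expressed genes. Loss of methylation can therefore be followed by higher or by lower transcript levels.

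Of the genes, 26026 to 27483 had at least 1 count in a seedling of this day. The treated seedlings had 10331338 to 11196233 counted reads and the controls 9926728 to 11137658, so depth overlapped between the treatments. The 10 most counted genes held 6.0% to 11.7% of the reads of a treated seedling and 9.09% to 11.1% of those of a control. The identifiers of the 39373 genes are not paired with gene names in the deposited table, and 0 of them matched the RefSeq genes of the species. Genes are therefore given by identifier without a function, the tissue could not be checked against leaf marker genes, and no sequence is shown. One library outside the 6 stood apart, the control LAY-15-30 of 19 October, with a mean distance of 184.7 to the other seedlings of the series on transformed counts, against 124.5 to 150.6 for each of the rest. Levels are given as CPM, the counts of a gene relative to the library total, scaled by TMM, a method of edgeR that corrects for differences in library composition.

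The question of this comparison is whether treated seedlings differed from controls of the same family once all RNA came from the same extraction day. With family as a block, edgeR's quasi-likelihood test gave 0 genes (0% of 23791 tested) with an adjusted p-value under 0.05, and the smallest adjusted p-value was 0.891. With 3 pairs this test has little power, so the 0 calls do not show that no gene differed. At an unadjusted p-value under 0.05, 492 genes (2.07%) were higher and 691 genes (2.90%) were lower in treated seedlings, together 1183. These are 4.97% of the tested genes, against the 5% that a threshold of 0.05 passes where no gene differs. DESeq2 with the same model called 281 genes at an adjusted p-value under 0.05, of which 95 (0.399%) were higher and 186 (0.782%) were lower. Of these 281 genes, 238 had an unadjusted p-value under 0.05 in edgeR, and 248 differed in the same direction in all 3 pairs. DESeq2 chose these genes for a treatment difference in the same seedlings. Both counts therefore follow in part from that choice and are no independent support for the calls. With no family block, edgeR again called 0 genes and DESeq2 called 208. In bulk leaf tissue, fewer cells of a type and less RNA per cell cannot be told apart, which holds for every gene below.

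The gene with the smallest p-value was lower in treated seedlings. QL04p095159 had 0, 3 and 4 counts in the treated seedlings of HV-11, LAY-15 and YORK-09, against 7, 361 and 197 counts in the controls of these families. Its level was 0.234 ± 0.205 CPM in treated and 19.0 ± 17.8 CPM in control seedlings (mean ± SD, n = 3 each). All treated seedlings lay below all controls, but the highest treated seedling, at 0.380 CPM, was close to the HV-11 control at 0.581 CPM. The log2 fold change of QL04p095159 was -6.19, with an approximate standard error of 0.51, and the adjusted p-value was 0.891 in edgeR and 1.8e-09 in DESeq2. It was -6.22 without the HV-11 pair, -5.68 without the LAY-15 pair and -6.69 without the YORK-09 pair.

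QL11p016713 was lower in treated seedlings by a similar ratio in each family, although its level differed between families. It had 1.76, 7.49 and 3.23 CPM in the treated seedlings of HV-11, LAY-15 and YORK-09, against 11.6, 60.8 and 23.2 CPM in the controls. Each treated seedling was below each control. The log2 fold change of QL11p016713 was -2.86 with an approximate standard error of 0.24 (edgeR adjusted p = 0.891, DESeq2 adjusted p = 3.55e-09), and leaving out any family's pair kept it between -2.93 and -2.79. This gene, too, was chosen for the same direction in every pair. In the earlier pairs it was higher in the treated seedling of HV-11 (36.3 against 4.79 CPM) and LAY-15 (75.5 against 2.23 CPM). It was lower in that of YORK-09 (2.88 against 27.1 CPM).

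The leading 2 genes among those higher in treated seedlings were more uneven between families. QL05p024581 had 181, 1 and 243 counts in the treated seedlings of HV-11, LAY-15 and YORK-09, against 3, 0 and 2 counts in the controls. Its level was high in 2 treated seedlings, at 15.9 CPM in HV-11 and 23.1 CPM in YORK-09, while both LAY-15 seedlings were at or near 0. The treated LAY-15 seedling, at 0.107 CPM, was below the highest control, at 0.249 CPM, so the groups overlapped. The log2 fold change of QL05p024581 was 6.23 with an approximate standard error of 0.53 (edgeR adjusted p = 0.891, DESeq2 adjusted p = 5.59e-06). In the earlier pairs it had 0, 0 and 218 counts in the treated seedlings of these families, against 95, 0 and 207 counts in the controls.

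QL12p008869 had 1336, 18 and 6 counts in the treated seedlings of HV-11, LAY-15 and YORK-09, against 84, 1 and 1 counts in the controls. These counts equal 118, 1.93 and 0.571 CPM in treated seedlings, against 6.97, 0.1 and 0.103 CPM in controls. The ratio pointed the same way in each pair, but the HV-11 control was above the treated seedlings of both other families. The log2 fold change of QL12p008869 was 3.83 with an approximate standard error of 0.41 (edgeR adjusted p = 0.891, DESeq2 adjusted p = 8.28e-06). In the earlier pairs it was lower in treated seedlings, with 14, 10 and 8 counts, against 410, 19 and 96 counts in the controls. Over the alternative edgeR fits, the adjusted p-values of these 4 genes lay between 0.647 and 1.

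**Figure D1:**
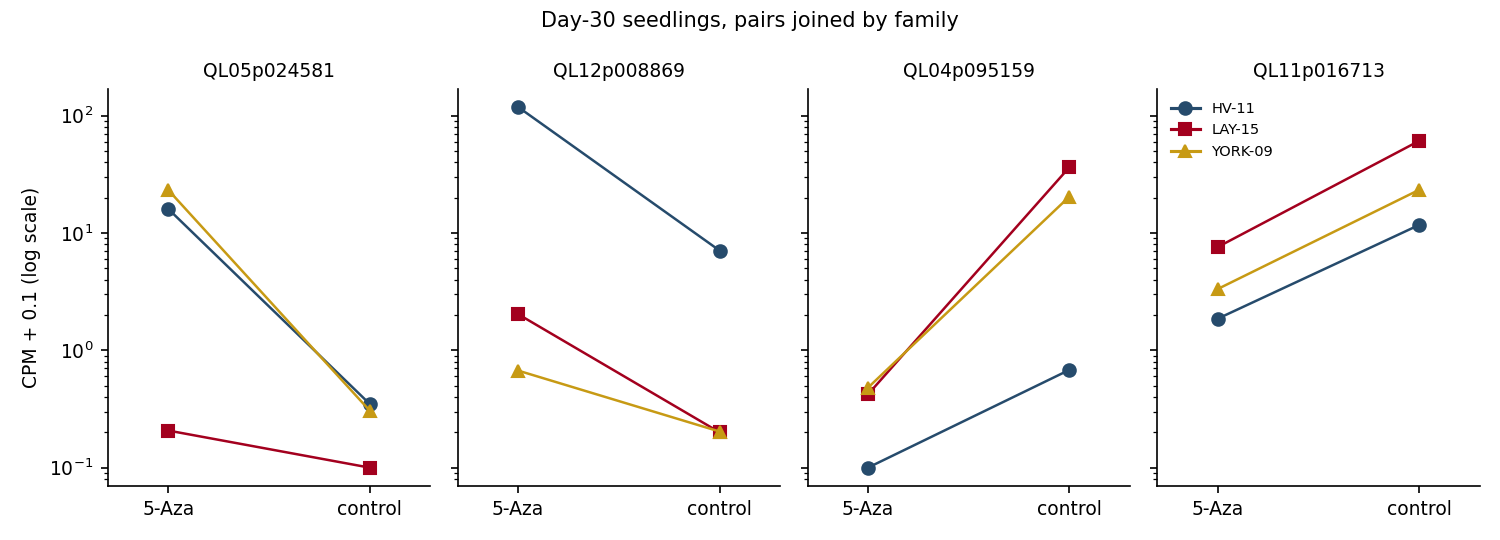
Level of 4 genes in the 6 seedlings extracted on 30 October, as CPM + 0.1 on a log axis, with treated seedlings left of controls and lines joining the seedlings of a family. QL05p024581 and QL12p008869 were higher and QL04p095159 and QL11p016713 lower in the treated seedling of each pair, and the LAY-15 line of QL05p024581 lies near the floor.

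Few genes were counted in one treatment only. At least 10 counts in each treated seedling and 0 in each control were found for 5 genes (0.0127%), and the reverse for 1 gene (0.00254%). These are shares of all 39373 genes in the deposited data, not of the tested genes. This direction depended on the cut-off, since allowing up to 3 counts in the other treatment gave 9 genes (0.0229%) for treated seedlings and 12 (0.0305%) for controls. QL11p051325 had the most counts of the first kind, with 68, 44 and 99 in the treated seedlings of HV-11, LAY-15 and YORK-09. Its level was 6.70 ± 2.44 CPM in treated seedlings (SD, n = 3), at least 23.4-fold higher than a floor of 3 counts in each control library. In the earlier pairs, which had no part in its choice, QL11p051325 had 62 counts in the treated seedling of HV-11, 18 in that of YORK-09 and 0 in that of LAY-15, against 0 in all 3 controls.

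QL04p015265 had 27, 31 and 64 counts in the treated seedlings of HV-11, LAY-15 and YORK-09 on 30 October, at least 13.7-fold above the same floor. It was not limited to treated seedlings in the earlier pairs, where it had 2, 19 and 95 counts in treated seedlings, against 0, 1 and 13 counts in controls. The single gene of the reverse kind, QL10p043243, had 0 counts in each treated seedling, against 26, 23 and 31 counts in the controls of HV-11, LAY-15 and YORK-09. With the floor of 3 counts in each treated library, it was at least 8.81-fold lower in treated seedlings. In the earlier pairs QL10p043243 had 1, 15 and 2 counts in treated seedlings and 0 in each control. This is the opposite direction, but only the 15 counts of LAY-15 lie above the floor of 3. The adjusted p-value of all 3 genes was 0.972 from edgeR. DESeq2 called QL11p051325 (adjusted p = 2e-05) and gave no adjusted p-value for QL04p015265 and QL10p043243. The bounds cover counting error only.

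Levels that did not overlap between the treatments were counted over the tested genes, with no minimum fold. With 3 seedlings against 3, some genes separate in this way even where treatment has no effect, so the counts alone are no sign of a response. All 3 treated seedlings were above all 3 controls for 1078 genes (4.53%), and below them for 987 genes (4.15%). The direction of this small excess depended on the scaling, since median-ratio size factors gave 998 and 1021 genes. When the difference had to be at least 2-fold in every pair, 109 genes (0.458%) were higher and 212 genes (0.891%) were lower in treated seedlings. These counts used CPM plus 0.5, and with CPM plus 2, which gives less weight to low genes, 41 were higher and 99 lower. In the earlier pairs, 285 genes (1.2%) were at least 2-fold higher and 66 (0.277%) at least 2-fold lower in all 3 treated seedlings, on CPM plus 0.5. The earlier LAY-15 pair holds the distant control LAY-15-30. A difference of at least 4-fold in every pair of 30 October was found for 12 higher and 41 lower genes.

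The 321 genes that were at least 2-fold different in every pair were mostly of low to moderate level. The 109 higher genes had a mean level over the 6 seedlings from 0.444 to 188 CPM, with a median of 4.47 CPM, and the 212 lower genes from 0.433 to 217 CPM, with a median of 5.54 CPM. Only 10 of the 321 genes averaged over 100 CPM, 2 of them higher and 8 lower in treated seedlings. Together the 109 higher genes summed to 2460, 1720 and 2380 CPM in the treated seedlings of HV-11, LAY-15 and YORK-09, against 551, 490 and 615 CPM in the controls. The 212 lower genes summed to 1980, 885 and 699 CPM in treated seedlings, against 7980, 5220 and 4780 CPM in controls. The genes were chosen for these differences, so the sums describe their size and are no test of them.

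Across all tested genes, the estimated fold changes were larger at lower levels of expression. Fold changes of genes with few counts also scatter more, and the part of this was not tested. The median absolute log2 fold change was 0.926 for 2905 genes under 1 CPM, 0.451 for 9158 genes from 1 to 10 CPM, 0.190 for 9977 genes from 10 to 100 CPM and 0.168 for 1751 genes over 100 CPM. The share of genes with an unadjusted p-value under 0.05 in edgeR was 3.41%, 5.78%, 4.95% and 3.48% in these classes, in the same order. It thus did not fall steadily with the level. Lower genes outnumbered higher ones most from 1 to 10 CPM, with 328 lower and 201 higher in treated seedlings.

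The pairs were then described one by one, with 1 treated seedling against 1 control and no test within a pair. In HV-11, 775 genes (3.26% of those tested) were at least 4-fold higher and 888 (3.73%) at least 4-fold lower in the treated seedling. In LAY-15 these numbers were 565 (2.37%) and 903 (3.8%), and in YORK-09 they were 748 (3.14%) and 969 (4.07%). More genes were lower than higher in all 3 pairs, and the excess was largest in LAY-15. With CPM plus 2 in place of 0.5, lower genes were again more numerous in LAY-15 (211 higher, 421 lower) and YORK-09 (325 higher, 464 lower), but HV-11 had 380 higher and 375 lower genes.

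Most of these differences were found in a single pair. Of the 3784 genes that differed at least 4-fold in any pair, 2839 (75%) did so in 1 pair only. Another 494 (13.1%) differed in the same direction in 2 pairs and 53 (1.4%) in 3 pairs, while 398 (10.5%) differed in opposite directions in 2 pairs. Over all 23791 genes, the log2 ratios of the pairs had Pearson correlations of 0.102 between HV-11 and LAY-15, 0.0668 between LAY-15 and YORK-09 and 0.0527 between HV-11 and YORK-09. These are correlations across genes between pairs that share no seedling but do share the extraction day, and genes are not independent replicates.

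**Figure D2:**
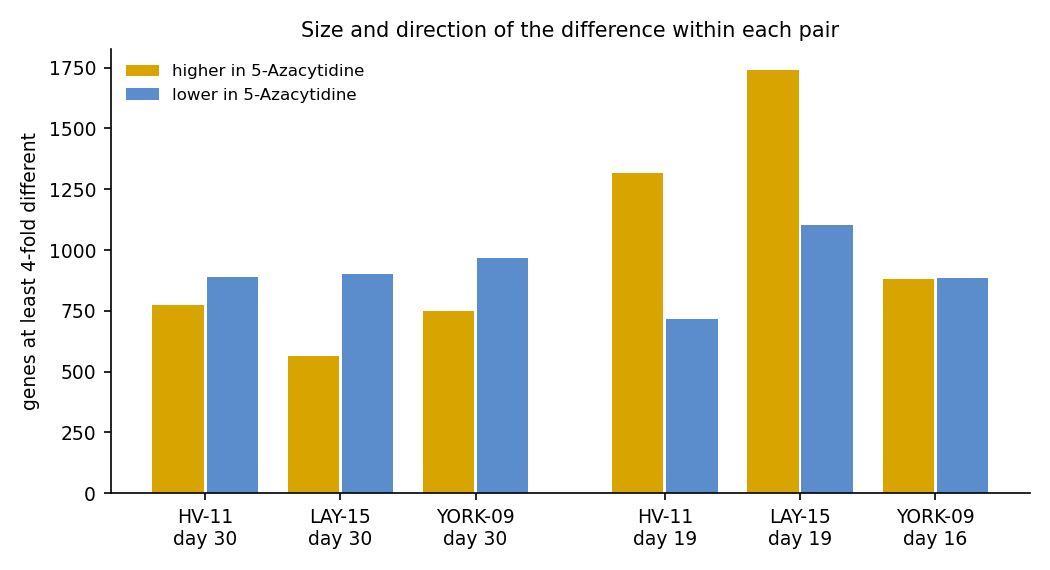
Number of genes at least 4-fold higher or lower in the treated than in the control seedling of each pair, on CPM plus 0.5, with the pairs of 30 October at the left and the earlier pairs at the right. In the 3 pairs of 30 October the lower genes are more numerous, with 565 to 775 higher and 888 to 969 lower genes, while the earlier pairs of HV-11 and LAY-15 show the reverse.

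The overall similarity of the 6 seedlings was measured on counts after DESeq2's variance stabilizing transformation. Treatment accounted for 19.7% of the summed squared distance between seedlings, against a mean of 20.0% over the 10 possible divisions into 3 and 3 (exact permutation test, one-sided, p = 0.5, where 0.1 is the smallest p possible). Among the 4 divisions that keep 1 seedling of each family on each side, which were compared after seeing the data, treatment had the largest share, with 16.0%, 16.4% and 17.0% in the others (exact permutation test, one-sided, p = 0.25, the smallest p possible). Family accounted for 48.1%, against a mean of 40.0% over 15 divisions into 3 pairs (exact permutation test, one-sided, p = 0.133, where 0.0667 is the smallest p possible). None of these tests can reach 0.05. Without the HV-11 pair, family accounted for 32.8%, below the mean of 33.3% for 4 seedlings, so the larger share of family rested on HV-11.

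The closest seedlings were LAY-15-09 and YORK-09-37, both treated, at a distance of 90.8, followed by the LAY-15 pair at 92.1. The farthest were the treated seedlings HV-11-40 and YORK-09-37, at 123.9. The first component of a PCA held 33.9% of the variance and set both HV-11 seedlings (-65.3 treated and -39.6 control) apart from the other 4. The second component held 20.6%, and on it the treated seedlings lay at -40.3, -5.2 and -36.5 in HV-11, LAY-15 and YORK-09, against 37.4, 37.8 and 6.9 in the controls. The treatments did not overlap on this component. So few seedlings can separate in this way on a component even where treatment has no effect, and the separation was not tested.

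**Figure D3:**
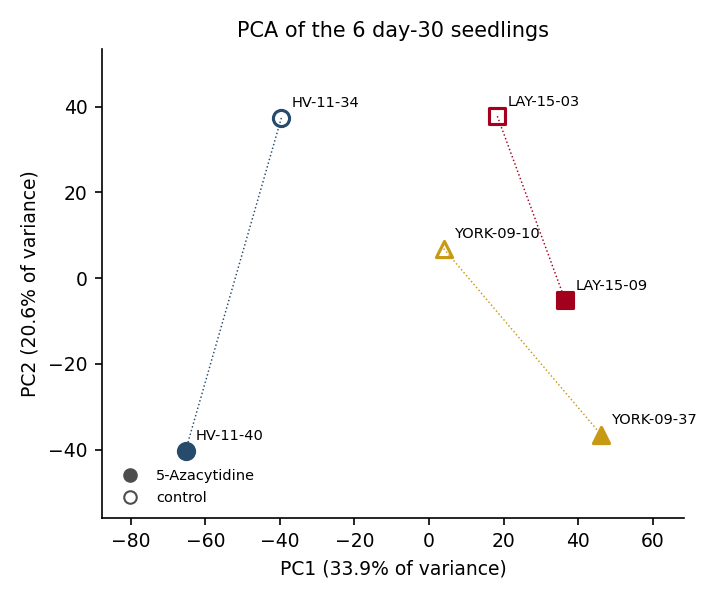
Positions of the 6 seedlings on the first 2 principal components of all tested genes, with filled symbols for treated and open symbols for control seedlings and dotted lines joining the members of a family. The HV-11 seedlings lie at -65.3 (treated) and -39.6 (control) on the first component, and on the second component each treated seedling lies below all controls.

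The 6 seedlings extracted on 16 and 19 October are other plants of the same families, so they show how far the differences of 30 October held elsewhere. In a separate edgeR fit with family as a block, the same sign was found for 450 (38%) of the 1183 genes that had an unadjusted p-value below 0.05 on 30 October. Over all 23777 genes with counts on 30 October, the signs were the same for 45.6%. Of the 492 genes that were higher in treated seedlings, 259 (52.6%) were also higher in the earlier treated seedlings, against 46.0% over all genes of that direction. Of the 691 that were lower, 191 (27.6%) were lower there, against 45.2% over all genes of that direction. Without the earlier LAY-15 pair, which holds the distant control LAY-15-30, the same sign was found for 39.6%, against 47.6% of all genes. The gap between the directions was then smaller, with 230 of 492 (46.7%) and 239 of 691 (34.6%), against 47.9% and 47.2% over all genes. For the 281 genes called by DESeq2 the shares were 52.6% of the higher and 32.3% of the lower genes with this pair, and 43.2% and 41.9% without it. Without the pair of 16 October the same sign was found for 43.1% of the 1183 genes, against 45.2% of all genes. The gap between the directions was then larger, with 305 of 492 (62%) and 205 of 691 (29.7%), against 45.9% and 44.3% over all genes. Without the earlier HV-11 pair the shares were 54.9% of the higher and 29.7% of the lower genes, against 46.8% and 47.2% over all genes. The difference between the directions was not tested.

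The 321 genes that were at least 2-fold different in every pair of 30 October were also followed in each earlier pair. Of the 212 lower genes, 130 were higher in the treated seedling of the earlier HV-11 pair, 135 in that of LAY-15 and 125 in that of YORK-09, or 61.3%, 63.7% and 59.0%. Over all genes, 49.0%, 50.4% and 45.7% were higher in these pairs. The median log2 ratio of the 212 genes was -1.83, -2.15 and -2.09 in the pairs of 30 October, and 0.46, 0.48 and 0.27 in the earlier pairs of HV-11, LAY-15 and YORK-09. Of the 109 higher genes, 48, 70 and 44 were higher in the earlier treated seedlings, with medians of -0.09, 0.47 and -0.26.

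**Figure D4:**
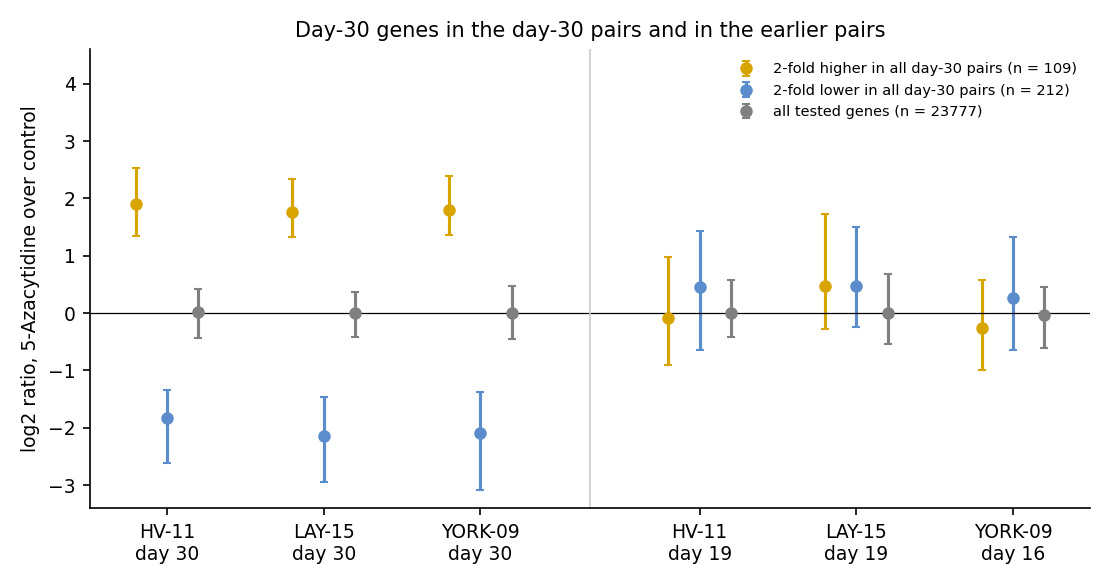
Log2 ratio of treated to control seedling in each pair for the 109 genes higher and the 212 genes lower at least 2-fold in every pair of 30 October, and for all tested genes, as medians with lines from the lower to the upper quartile. The values at the left chose the genes. At the right the lower genes have medians above 0 in all 3 earlier pairs, between 0.27 and 0.48.

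The levels in single seedlings show which samples carried the 212 lower genes. Their median level was 1.58, 1.23 and 0.666 CPM in the treated seedlings of HV-11, LAY-15 and YORK-09 on 30 October, against 10.4, 8.17 and 7.74 CPM in the controls. In the earlier seedlings it was 2.14, 2.09 and 3.12 CPM in treated seedlings of these families, against 1.07, 0.679 and 2.69 CPM in controls. The 3 controls of 30 October were thus the highest of all 12 seedlings, and the treated seedlings of that day lay within or just below the range of the earlier ones. For the 109 higher genes, both groups of 30 October lay outside the range of the earlier seedlings, which was 2.52 to 5.14 CPM. Their median level was 6.31 to 8.84 CPM in the treated seedlings of 30 October and 1.08 to 1.45 CPM in the controls of that day. These genes were chosen for an extreme difference on 30 October, which by itself places the seedlings of that day at the ends.

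The difference between the 2 sets of seedlings was tested by itself, as the treatment effect on 30 October minus the effect in the earlier pairs, with all 6 pairs as a block. By edgeR's quasi-likelihood test 0 genes had an adjusted p-value under 0.05, and the smallest was 0.289. At an unadjusted p-value under 0.05, the effect of 30 October was the higher one for 428 genes (1.80%) and the lower one for 844 genes (3.55%). Without the LAY-15 pair of 19 October these counts were 681 and 878, so the imbalance was smaller. Genes with a large difference between the effects mostly have effects of opposite sign by that choice alone, so the signs are a description. In 398 treated seedlings were higher on 30 October and lower earlier, in 782 the reverse was found, and 92 had the same sign in both sets. DESeq2 called 277 genes (1.16%), 50 with the higher and 227 with the lower effect on 30 October. Without the LAY-15 pair of 19 October it called 383, with 134 higher and 249 lower, and without the pair of 16 October 330, with 41 higher and 289 lower.

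The number and direction of the 4-fold differences per pair were also compared between the 2 sets. The pairs of 30 October had 1468 to 1717 such genes and the earlier pairs 1763 to 2843 (exact permutation test, two-sided, p = 0.1, the smallest that 3 pairs against 3 allow). The 2843 genes were those of the earlier LAY-15 pair, which holds the distant control LAY-15-30. The earlier HV-11 and YORK-09 pairs had 2035 and 1763 genes that differed at least 4-fold. The share of the 4-fold different genes that was higher in the treated seedling was 38.5% to 46.6% in the pairs of 30 October. In the earlier pairs it was 49.9% to 64.7% (exact permutation test, two-sided, p = 0.1). With CPM plus 2 the shares overlapped, at 33.4% to 50.3% and 50.2% to 61.4% (exact permutation test, p = 0.2). The design cannot reach 0.05, and the sets differ in extraction day and in individual plants, which cannot be told apart. The earlier HV-11 and LAY-15 pairs were also those that the authors singled out by phenotype for bisulfite sequencing.

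The leading 2 genes of each direction of this difference are given as examples. QL01p023916 had 12.7, 17.2 and 22.8 CPM in the treated seedlings of HV-11, LAY-15 and YORK-09 on 30 October, against 31.5, 55.1 and 72.1 CPM in the controls. In the earlier pairs it had 28.2, 2.09 and 115 CPM in treated seedlings, against 6.50, 0.388 and 30.0 CPM in controls. It was thus lower in the treated seedling in 3 of 3 pairs on 30 October and higher in 3 of 3 earlier pairs, with a range between families of the earlier seedlings that exceeded the treatment difference. The difference of the log2 fold changes of QL01p023916 was -3.66 with an approximate standard error of 0.31 (edgeR adjusted p = 0.289, DESeq2 adjusted p = 1.88e-16), and it was -3.57 without the LAY-15 pair of 19 October.

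QL11p002336 behaved alike. On 30 October it had 6.25, 2.03 and 1.14 CPM in the treated seedlings of HV-11, LAY-15 and YORK-09, against 45.0, 24.7 and 10.6 CPM in the controls. Earlier it had 1.86, 7.18 and 30.5 CPM in treated seedlings, against 0.770, 3.01 and 6.55 CPM in controls. Treated seedlings were below all controls on 30 October, and the earlier groups overlapped. The difference of its log2 fold changes was -4.81 with an approximate standard error of 0.50 (edgeR adjusted p = 0.373, DESeq2 adjusted p = 9.36e-12).

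In the other direction, QL04p034904 was the most abundant of the 4 genes. It had 346, 173 and 297 CPM in the treated seedlings of HV-11, LAY-15 and YORK-09 on 30 October, against 131, 82.4 and 98.6 CPM in the controls, with no overlap. The earlier pairs went the other way, with 75.7, 35.9 and 190 CPM in treated seedlings, against 530, 187 and 414 CPM in controls. The difference of the log2 fold changes of QL04p034904 was 3.46 with an approximate standard error of 0.51 (edgeR adjusted p = 0.708, DESeq2 adjusted p = 6.68e-07).

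QL04p081146 differed from the other 3 genes in that the earlier pairs showed almost no difference. It had 14.8, 17.2 and 11.7 CPM in the treated seedlings of HV-11, LAY-15 and YORK-09 on 30 October, against 1.66, 0.501 and 0.723 CPM in the controls. The earlier seedlings had 3.16, 18.4 and 16.9 CPM when treated, against 3.59, 17.8 and 14.2 CPM in controls. The 3 controls of 30 October were the lowest of the 12 seedlings. The treatment difference of QL04p081146 was 4.02 on the log2 scale on 30 October, with an approximate standard error of 0.53, and 0.06 in the earlier seedlings, with one of 0.36. The difference between them was 3.97 with an approximate standard error of 0.60 (edgeR adjusted p = 0.708, DESeq2 adjusted p = 1.34e-05).

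**Figure D5:**
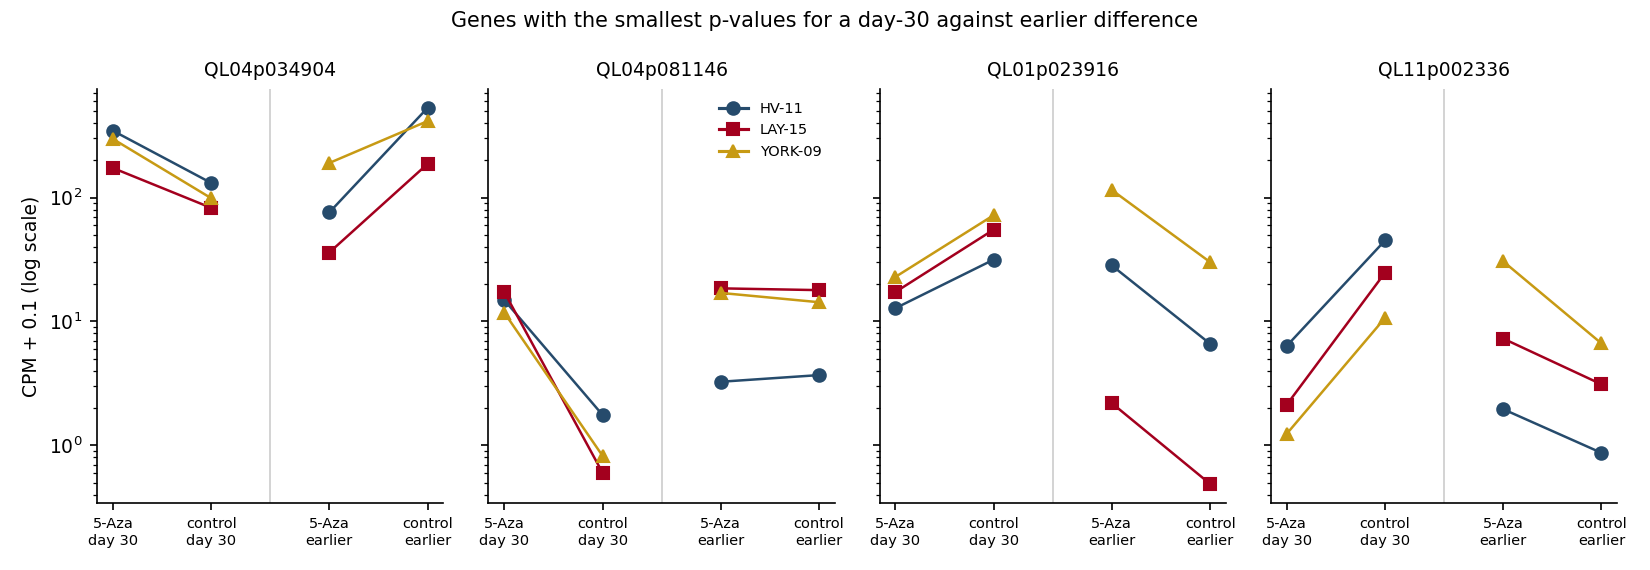
Level of 4 genes in all 12 seedlings, as CPM + 0.1 on a log axis, with the pairs of 30 October left and the earlier pairs right in each panel, treated seedlings left of their controls, and lines joining the members of a pair. The lines of QL04p034904, QL01p023916 and QL11p002336 slope in opposite directions in the 2 sets of pairs, and those of QL04p081146 are nearly level in the earlier pairs.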

How the data were processed

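The authors trimmed reads with Cutadapt 2.3, aligned them to v3.0 of the valley oak genome with STAR 2.7.1, and removed platform duplicates (Picard 2.20.3) and reads that mapped to several places (Samtools 1.9). The deposited values are raw counts per gene from HTSeq 0.11.1, 1 column per seedling, with no normalization. The strand option of the count is not given in the sources used here, so overlapping and antisense genes are uncertain, as are near-identical copies.

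Genes were filtered by filterByExpr over all 12 seedlings (a minimum count of 10 and a total of at least 15, with family-by-treatment groups), which kept 23791 genes. Treatment was tested on the 6 seedlings of 30 October with edgeR 4.0.16 (TMM, glmQLFit, glmQLFTest, prior count 0.125) in R 4.3.3, with family as a block and Benjamini-Hochberg adjustment over all tested genes. DESeq2 1.42.0 was the alternative. It gave no adjusted p-value for 5546 genes, which were not counted as calls. Printed CPM use TMM factors from all 12 seedlings. Standard errors from edgeR are approximations from the test statistic. Scripts were tested on simulated data, and figures were drawn with matplotlib 3.10.9.

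Pairing follows the family labels. Deviations from the treatment means correlated at 0.327 within HV-11, at 0.165 within LAY-15 and at 0.0823 within YORK-09, and at -0.229 to 0.128 between families. Chi-square per degree of freedom between any 2 of the 6 libraries was 32.4 to 95.0, so none repeats another. Nothing in the sources gives more than 1 library per seedling. In the fits with a family block, p-values measure how far the treatment difference varied between pairs of single plants.

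The seedlings, lists and tests were chosen with earlier results of these data known. Genes were named by rule: the 2 smallest p-values in each direction among genes with 1 direction in all 3 pairs, the 2 in each direction of the difference between the sets, and up to 2 with most counts among genes counted in 1 treatment only. Identifiers carry no names, so no more were printed. Alternatives were no family block, DESeq2, median-ratio size factors, other filters and pseudocounts, a fit of all 12 seedlings, and each seedling or pair left out. The counts without the earlier LAY-15 or HV-11 pair, the DESeq2 counts without a pair, the other gene lists looked up in the earlier seedlings, the divisions within families and the test over pairs were added after seeing the data.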

Additional observations from a re-analysis of the deposited data

Results flagged for a closer look

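For 5 of the genes named above, all 3 pairs of 30 October differed in one direction and all 3 earlier pairs in the opposite one. Over all 23791 tested genes, 405 were higher in treated seedlings in every pair of 30 October and lower in every earlier pair (1.70%), and 497 showed the reverse (2.09%), while 307 were higher and 245 lower in all 6 pairs. The values below are mean log2 ratios of treated to control, on CPM plus 0.5, on 30 October minus the earlier pairs, and each difference was tested by edgeR with the pairs as a block.

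The value was 4.88 for QL12p008869 (2.27 on 30 October and -2.61 earlier, adjusted p = 0.708 from edgeR). It was 3.45 for QL04p034904 (1.35 and -2.09, adjusted p = 0.708 from edgeR). For QL01p023916 it was -3.36 (-1.52 and 1.83, adjusted p = 0.289 from edgeR), and for QL11p002336 it was -4.33 (-2.94 and 1.39, adjusted p = 0.373 from edgeR). For QL10p043243, counted only in controls on 30 October, it was -3.48 (-2.60 and 0.88, adjusted p = 0.910 from edgeR). QL04p034904, QL01p023916 and QL11p002336 were first named for this difference. All 5 genes are listed here because their pairs point in opposite directions, so these directions are no independent support for it. For QL10p043243 the earlier treated seedlings of HV-11 and YORK-09 had 1 and 2 counts against 0, which is under the floor of 3 counts.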

How the results depend on the processing

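The 0 calls of edgeR on 30 October were found in every alternative edgeR fit. These include the fit of all 12 seedlings with the pairs as a replicate block and the fit with no replicate block. The smallest unadjusted p-value of the main edgeR fit, 0.00016, did not pass the adjustment over 23791 genes. With 3 pairs the test has little power, so the repeated 0 does not show that no gene differed. DESeq2 called 281 genes with and 208 without the family block, and 210 to 235 with a pair left out. The 1183 genes at an unadjusted p-value under 0.05 lay between 1111 and 1277 with a seedling or pair left out. With family as a block, a seedling without its partner adds nothing on treatment. The fits without 1 seedling are thus no separate checks beside those without its pair. The number was 1068 with no replicate block and 792 in the fit of all 12 seedlings. It fell to 701 with the filter on CPM, which tests 14552 genes. The test between the sets also gave 0 calls in every edgeR fit and 277 with DESeq2, and its 0 calls have the same limit. The share of variation of treatment was 21.0% with the 500 most variable genes, above the mean of 20.0%, and 29.9% to 34.8% with a pair left out, where the mean is 33.3%, and it exceeded that mean without HV-11. The 19.7% exceeded a mean of 17.3% over the 4 divisions within families. That of family was 32.8% to 45.6%. The genes with the same sign in the earlier seedlings were 41.3% with no replicate block and 43.1% without the pair of 16 October. With CPM plus 2, the genes 2-fold different in every pair numbered 140 in place of 321, and those 4-fold different in a pair 755 for HV-11, 632 for LAY-15 and 789 for YORK-09, since this value shrinks the ratios of low genes. Genes counted in 1 treatment only numbered 12 with a minimum of 5 counts and 21 when up to 3 counts were allowed in the other treatment, of which 9 were higher and 12 lower in treated seedlings. The 4 genes named first kept their direction in all alternatives. They were chosen for the same direction in every pair, so this was largely fixed by the choice and is no independent check. Depth limits genes with few counts, since 3 counts equal 0.249 to 0.321 CPM in these 6 libraries. The spread between plants that remained with family as a block, as a biological coefficient of variation, was 0.518.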

Other observations

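The genes that were at least 2-fold different in every pair of 30 October often stood next to each other in the deposited table. Of the 212 lower genes, 41 (19.3%) had another of these genes in the row directly before or after among the tested genes of the same identifier prefix, against 1.74% of all tested genes with such a neighbour. The longest run was 4 rows. Of the 109 higher genes, 11 (10.1%) had such a neighbour, against 0.899% of all tested genes, and the longest run was 3 rows. What the row order stands for is not given in the sources used here. Adjacent copies of a gene family can share reads, and their part in these counts was not tested.

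By identifier prefix, the lower genes made up 0.459% of the tested genes of QL08 and 1.35% of those of QL10, the lowest and highest of the prefixes QL01 to QL12, and the higher genes 0.138% of QL08 and 0.915% of QL11.

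Within families, the direction of 30 October carried over unevenly to the earlier pair of the same family. Of the genes at least 4-fold higher in the treated seedling, 43.6% of those of HV-11, 57.5% of those of LAY-15 and 40.6% of those of YORK-09 were also higher in the earlier treated seedling. Over all genes, 49.0%, 50.4% and 45.7% were higher in these earlier pairs of HV-11, LAY-15 and YORK-09. Of those at least 4-fold lower, 32.1%, 35.3% and 48.8% were lower there, against 49.5%, 47.3% and 52.9% over all genes. Of the 281 genes DESeq2 called on 30 October and the 191 it called in the earlier seedlings, 21 were shared, and 15 of these had opposite directions.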
